A study of Mus musculus with 15 samples.

Results

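A group of 8 E3 ubiquitin ligases encoded by some of the longest open reading frames of the mouse were followed through ribosome profiling of mouse embryonic stem cells (mESCs). They are *Huwe1*, *Ubr4*, *Herc1*, *Herc2*, *Birc6*, *Mycbp2*, *Trip12* and *Rnf213*. They were chosen as a named list of ligases, with earlier results of these data known. Each matched 1 of the 21727 transcripts counted, and all 8 were among the 10085 transcripts with enough footprints to test. The cells were E14Tg2a.4 mESCs of 3 kinds. *Rps27-FLAG* cells carried a homozygous CRISPR insertion of a 3xFLAG tag at the 3′ end of the endogenous *Rps27* coding sequence, *Rps27l-FLAG* cells carried the same tag on its paralog *Rps27l*, and wild-type (WT) cells carried none. Each line was represented by 3 separately picked clones, all treated with cycloheximide, which halts elongating ribosomes. Every clone gave a library of mRNA fragments shielded by any ribosome (total ribosome-protected fragments, RPFs), and each tagged clone gave a second library from ribosomes captured through the FLAG tag (IP RPFs), which made 5 groups of 3 libraries. No IP library of WT cells was analysed here, so RNA that binds the beads without the tag cannot be told apart from RNA on tagged ribosomes.

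E3 ligases carry out the last step of ubiquitination, in which ubiquitin is joined to a chosen substrate protein. HECT ligases (*Huwe1*, *Herc1*, *Herc2*, *Trip12*) first take ubiquitin onto a cysteine of their own near the C-terminus and then pass it on, RING-type ligases bring the charged E2 enzyme and the substrate together, and other members use arrangements of their own. Known substrates of these ligases include regulators of the cell cycle, DNA damage signalling and apoptosis, and their coding sequences (CDSs) are among the longest a ribosome has to traverse.

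For the 4 HECT members the codon of that catalytic cysteine lies near the end of the CDS, so a ribosome counted there had crossed nearly all of the message. The stretches below are 30 nt of coding strand read from the GENCODE M21 transcripts, about the length of a footprint, and are shown to place that end point; capitals mark the cysteine codon.
Huwe1: tcagctcacacaTGTtttaatcaactggac
Herc1: acctcacagaccTGCttcttccagctgcgg
Herc2: gaatcctacacaTGCttctttctgctcaag
Trip12: tcagtaatgactTGTgtgaactatcttaaa
The cysteine is codon 4345 in *Huwe1*, 4809 in *Herc1*, 4764 in *Herc2* and 1992 in *Trip12*, with 33, 50, 72 and 33 codons left before the stop. Each was found as the only match in the translated CDS to the HECT motif of leucine, proline, any 3 residues, threonine and cysteine. The counts analysed here are sums over each CDS and hold no position within it.

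In GRCm38 with GENCODE M21 the transcripts lay on 8 chromosomes. *Huwe1* (ENSMUST00000026292) occupied chrX:151803327-151935417 on the plus strand with a CDS of 13134 nt, *Herc1* (ENSMUST00000042824) chr9:66350526-66508775 on the plus strand with 14577 nt, and *Herc2* (ENSMUST00000076226) chr7:56050253-56231800 on the plus strand with 14508 nt. *Trip12* (ENSMUST00000186465) occupied chr1:84721189-84840516 on the minus strand, and its CDS of 6075 nt was by far the shortest of the group. *Ubr4* (ENSMUST00000097822) occupied chr4:139380659-139489588 on the plus strand, with 106 exons and the longest CDS, 15540 nt. *Birc6* (ENSMUST00000180037, 14619 nt) lay at chr17:74528295-74703356 on the plus strand, *Mycbp2* (ENSMUST00000159855, 14238 nt) at chr14:103113411-103346800 on the minus strand and *Rnf213* (ENSMUST00000093902, 15456 nt) at chr11:119393100-119487415 on the plus strand. The median CDS of the tested transcripts was 1440 nt, and 37 of them were longer than 13000 nt, 7 of these being the ligases. By length *Trip12* ranked 295 of all tested. The share of codons ending in G or C ran from 39.3% in *Trip12* to 66.8% in *Ubr4*. Only *Ubr4* and *Rnf213* (62.15%) exceeded the median of 60.2% over tested transcripts, and the others reached 49.75% at most (*Herc2*). The median of transcripts of like length to the 7 longest ligases was 57.37%. None of the 28-nt windows of the 8 CDSs occurred in another counted transcript.

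Library totals ran from 3972152 to 8064166 counts, and the ligases had between 328 counts (*Mycbp2*, an *Rps27-FLAG* IP library) and 10466 counts (*Trip12*, a WT library). All 10 mESC markers were tested, with a summed level of 4150 to 5270 CPM (counts scaled to the library total), against 4.47 to 27.9 CPM for 6 primitive endoderm markers, 8.49 to 33.5 CPM for 6 trophoblast markers, 8.93 to 34.6 CPM for 6 fibroblast markers and 124 to 165 CPM for 6 neural markers. The mESC markers summed to 4900 to 5270 CPM in the IP libraries and 4150 to 4760 CPM in the total libraries. *Rps27* was listed at 0 in all 15 libraries and *Rps27l* at 655 to 1151 counts, so the counts do not check which paralog was tagged.

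The 8 ligases spanned a wide range of footprint levels. Levels were compared between genes as TMM-normalized CPM per kb of the counted CDS, and in the total RPFs of WT cells they fell into 3 tiers. *Trip12*, a HECT ligase of chromatin and DNA repair proteins, stood highest at 205, 231 and 229 in the 3 libraries (mean 222 ± 14.6, SD, n = 3). *Huwe1*, a HECT ligase whose substrates include Mcl1, Myc and histones, followed at 96.7, 100.0 and 106 (101 ± 4.55, SD, n = 3). The *Trip12* libraries all lay above the *Huwe1* libraries.

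*Birc6*, an inhibitor of apoptosis that carries both E2 and E3 activity, and *Ubr4*, which recognises N-degrons, formed the middle tier at 55.2 ± 2.63 and 54.8 ± 1.02 per kb (SD, n = 3), and their libraries overlapped. The lowest tier held *Herc2*, which takes part in DNA damage signalling, *Rnf213*, an AAA ATPase with ligase activity, *Herc1*, which joins RCC1-like repeats to its HECT domain, and *Mycbp2*, which ubiquitinates through a cysteine relay. Their WT means were 12.6, 11.8, 11.3 and 10.1 per kb, and each overlapped its neighbour in that order. The same tiers were seen in the total RPFs of both tagged lines, where *Trip12* averaged 202 and 200 per kb and *Mycbp2* 10.7 and 9.91 per kb.

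The median tested transcript had 25.5 per kb in WT, so the ligases of the lowest tier lay below it and the others above. Against tested transcripts with a CDS within 20% of their own length, all 8 ranked in the upper part. No transcript of like length exceeded *Huwe1* (42 compared, median 5.10 per kb), and 4 of 331 exceeded *Trip12*. *Birc6* and *Ubr4* stood at the 87.5 and 85.2 percentile, *Herc1* and *Herc2* at the 78.1, *Rnf213* at the 75.0 and *Mycbp2* at the 69.7. A level of this kind is a share of the footprints of a pool of cells, in which fewer cells translating a message and fewer footprints per cell cannot be told apart, nor can the amount of mRNA and the number of ribosomes on it.

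**Figure D1:**
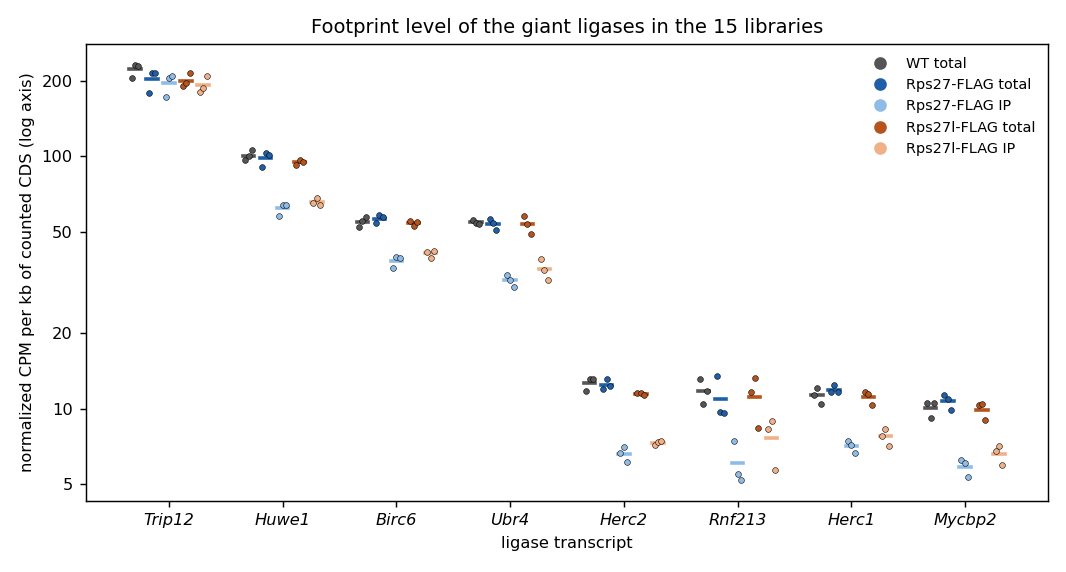
Footprint level of each ligase in TMM-normalized CPM per kb of counted CDS (log axis). Points are single libraries and bars the mean of 3, coloured by group. *Trip12* (WT mean 222) and *Huwe1* (101) stand above *Birc6* and *Ubr4* (55.2 and 54.8) and a low tier near 10.1 to 12.6, and the IP libraries lie below the total libraries for every ligase but *Trip12*, apart from an overlap for *Rnf213* in *Rps27l-FLAG*.

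Tagging left the total RPFs of the ligases without a detected difference between lines. Across the 3 comparisons (*Rps27-FLAG* against WT, *Rps27l-FLAG* against WT and *Rps27l-FLAG* against *Rps27-FLAG*), log2 fold changes ran from -0.15 to 0.09, with standard errors from 0.053 to 0.17. In edgeR's quasi-likelihood test 0 of 8 ligases passed an adjusted p of 0.05 in any of them, as did 0.0% of the 10085 transcripts. voom with limma and DESeq2 also called 0 ligases. The lowest unadjusted p of a ligase in edgeR's test was 0.0485, for *Herc2* in *Rps27l-FLAG* against WT (log2 fold change -0.14 ± 0.063 SE, adjusted p = 0.821). With the replicate number as a block, 0 ligases were called, against 0.00992%, 1.43% and 1.36% of transcripts in the 3 comparisons. Both comparisons with WT share the WT libraries.

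*Rnf213* set the upper end of those standard errors. Its total RPFs were 13.5, 9.68 and 9.62 per kb in the *Rps27-FLAG* clones, 11.7, 13.2 and 8.39 in the *Rps27l-FLAG* clones and 13.1, 10.5 and 11.7 in the WT clones. The highest clone had another number in each tagged line, and the 3 lines overlapped fully. For *Herc2*, the total libraries of *Rps27l-FLAG* had 11.5, 11.5 and 11.4 per kb and those of WT 11.8, 13.1 and 13.1. That difference did not pass the edgeR test (adjusted p = 0.821). *Trip12* differed as much in the same comparison (log2 fold change -0.146 against -0.142 for *Herc2*) and was not called either.

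Footprints of 7 ligases in *Rps27-FLAG* and of 6 in *Rps27l-FLAG* were scarcer among IP RPFs than among total RPFs. The comparison asks which messages were under- or over-represented on the tagged ribosomes of a clone relative to all of its ribosomes. In *Rps27-FLAG* cells 7 of 8 ligases were lower in the IP RPFs, all but *Trip12*, where 5.34% of tested transcripts were called lower. In *Rps27l-FLAG* cells 6 of 8 were lower, all but *Trip12* and *Rnf213*, where 2.27% of tested transcripts were called lower. The ligases together made up 0.467% to 0.487% of the counts of the *Rps27-FLAG* total libraries and 0.338% to 0.345% of its IP libraries. In *Rps27l-FLAG* they made up 0.463% to 0.478% and 0.354% to 0.364%, and in WT total libraries 0.482% to 0.493%.

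Among the HECT ligases, *Huwe1* counted 90.8, 103 and 102 per kb in the total RPFs of the 3 *Rps27-FLAG* clones and 58.3, 64.5 and 64.2 in their IP RPFs. In *Rps27l-FLAG* it counted 92.8, 96.9 and 95.0 in total RPFs and 65.4, 68.2 and 64.4 in IP RPFs. In both lines every IP library lay below every total library. The log2 fold change was -0.66 ± 0.073 (SE, adjusted p = 0.00266) in *Rps27-FLAG* and -0.52 ± 0.044 (SE, adjusted p = 0.00329) in *Rps27l-FLAG*.

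*Herc2* showed the lowest IP level relative to total in both lines. Its total RPFs were 173, 188 and 178 normalized CPM (not divided by length) in the *Rps27-FLAG* clones and its IP RPFs 96.6, 102 and 88.8. In the *Rps27l-FLAG* clones the total RPFs were 166, 166 and 164 normalized CPM and the IP RPFs 104, 106 and 107. Neither line had an IP library that reached a total library. The fold changes were -0.91 ± 0.071 (SE, adjusted p = 0.00104) and -0.65 ± 0.061 (SE, adjusted p = 0.00417). *Herc1* fell by 0.74 and 0.52 on the log2 scale (adjusted p = 0.00128 and 0.0201). Its IP libraries, at 6.68 to 7.45 and 7.13 to 8.32 per kb, lay below its total libraries in both lines.

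*Trip12* was the exception. Its total RPFs were 178, 214 and 214 per kb in the *Rps27-FLAG* clones and its IP RPFs 173, 205 and 209. In the *Rps27l-FLAG* clones the total RPFs were 191, 195 and 215 per kb and the IP RPFs 180, 188 and 209. The IP and total libraries overlapped in both lines, although each clone's IP value was slightly below its own total value. The fold changes were -0.05 ± 0.10 (SE, adjusted p = 0.832) and -0.06 ± 0.068 (SE, adjusted p = 0.749).

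Among the ligases without a HECT domain, *Ubr4* fell by 0.74 and 0.59 on the log2 scale (adjusted p = 0.00128 and 0.0170), from total means of 53.9 and 53.7 per kb to IP means of 32.2 and 35.7. *Mycbp2* fell by 0.86 and 0.58 (adjusted p = 0.00164 and 0.0198), from 10.7 and 9.91 to 5.89 and 6.62 per kb. *Birc6* had the smallest change of the long members, a fall by 0.56 and 0.40 (adjusted p = 0.00292 and 0.00654), from 56.7 and 54.5 to 38.6 and 41.2 per kb. No IP library of these 3 overlapped a total library of its line.

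*Rnf213* varied most between clones. Its IP RPFs were 7.46, 5.52 and 5.20 per kb in *Rps27-FLAG*, all below the total RPFs, with a log2 fold change of -0.84 ± 0.17 (SE, adjusted p = 0.0317). In *Rps27l-FLAG* they were 8.30, 8.96 and 5.68, which overlapped the total RPFs, and the fold change of -0.53 ± 0.20 (SE) did not pass the test (adjusted p = 0.216). Within clones the ratio was far more even. With the clone as a block *Rnf213* was also called in *Rps27l-FLAG* (adjusted p = 4.41e-17), which made 7 ligases lower in each line, against 22.9% and 19.0% of all tested transcripts.

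The ratio was also taken within each clone, where the IP and total libraries share a replicate number. The log2 ratio of IP to total was -0.64, -0.68 and -0.66 for *Huwe1* in *Rps27-FLAG*, and -0.50, -0.51 and -0.56 in *Rps27l-FLAG*. For *Ubr4* it was -0.73, -0.76 and -0.74, and then -0.56, -0.60 and -0.61. For *Rnf213* it was -0.85, -0.81 and -0.89, and then -0.49, -0.56 and -0.56. *Herc1* and *Herc2* were less even. *Herc1* had -0.65, -0.79 and -0.80, and then -0.58, -0.46 and -0.53, and *Herc2* averaged -0.91 with an SD of 0.0806 in *Rps27-FLAG* (n = 3). *Trip12* stayed between -0.08 and -0.04 in all 6 tagged clones, while the highest ratio of any other ligase was -0.38 (*Birc6*).

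Without the block, these calls, like those over all transcripts, depended on which clones were kept. Leaving out replicate 2 or replicate 3 of *Rps27-FLAG* gave 0 called ligases and 0 calls over all transcripts. Leaving out replicate 1 gave 7 ligases and 1809 calls over all transcripts, against 572 with all clones. Leaving out replicate 1 or replicate 2 of *Rps27l-FLAG* gave 0 ligases and 0 calls over all transcripts. Leaving out replicate 3 gave 7 ligases and 318 calls over all transcripts, against 313 with all clones. Every log2 fold change of the 8 ligases stayed below 0 in these fits.

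**Figure D2:**
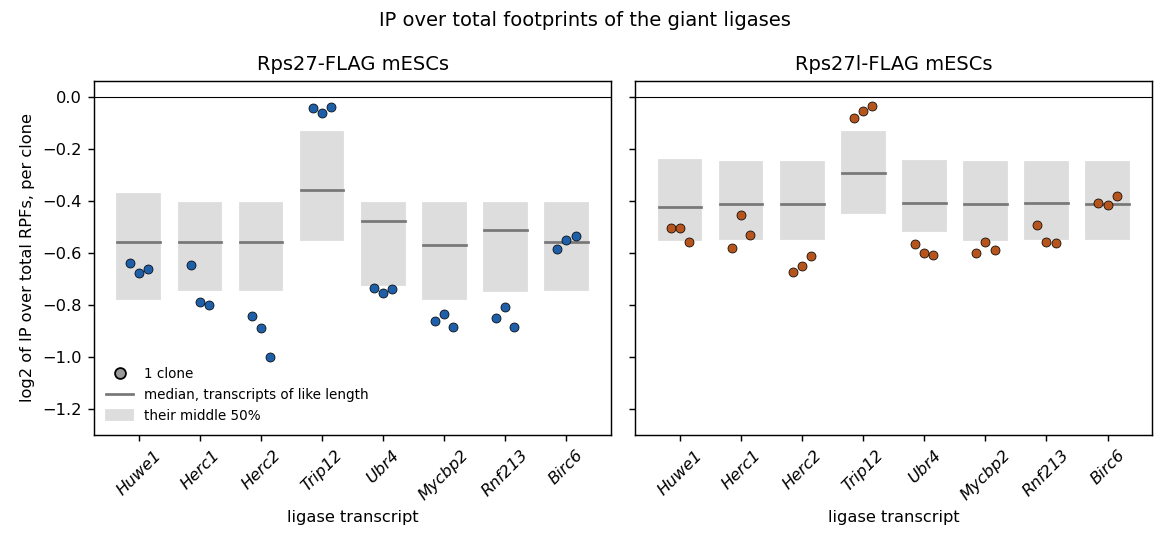
log2 ratio of IP to total RPFs for each ligase in the 3 clones of each tagged line (points), with the median (grey line) and middle 50% (grey box) of tested transcripts whose CDS is within 20% of the ligase's length. *Trip12* lies near 0, between -0.08 and -0.04, and above its grey box in all 6 clones, *Birc6* lies on its grey line, and the other 6 ligases average below theirs.

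The ratio of IP to total fell with CDS length over all transcripts, so each ligase was set against transcripts of like length. The 45 other tested transcripts with a CDS within 20% of any of the 7 longest ligases had median log2 fold changes of -0.57 (*Rps27-FLAG*) and -0.42 (*Rps27l-FLAG*), against -0.01 and -0.03 over all tested transcripts. Of these 45, 42.2% and 33.3% were called lower, and with the clone as a block 84.4% and 71.1%. The medians of the 7 longest ligases were -0.74 and -0.53. IP libraries lay wholly below total libraries for 7 and 6 ligases, for 60.0% and 44.4% of the 45, and for 17.0% and 14.2% of all tested transcripts.

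*Herc2* stood lowest in this setting. It was at the 9.38 percentile of 32 transcripts of like length in both lines, and in every clone it lay below their median, by 0.37 ± 0.10 and 0.25 ± 0.060 on average (log2, SD, n = 3). *Mycbp2* was at the 12.1 and 18.2 percentile. *Rnf213* was at the 17.9 and 28.6, *Ubr4* at the 22.2 and 11.1, and *Herc1* at the 25.0 and 28.1 percentile. *Huwe1* was nearer the middle at the 40.5 and 33.3, and *Birc6* lay in it at the 50.0 and 56.2.

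*Trip12* took the opposite place. The 331 tested transcripts of its length, 4860 to 7290 nt, had medians of -0.37 and -0.29, and 32.3% and 19.0% of them were called lower. *Trip12* was at the 84.3 percentile of them in both lines, and exceeded their median by 0.29 to 0.32 in the *Rps27-FLAG* clones and by 0.20 to 0.24 in the *Rps27l-FLAG* clones.

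Most long transcripts had few footprints per kb, and the ranks moved when level was matched. Only 17 of the 45 reached the WT level of *Mycbp2*, the lowest ligase. Among those 17 the median log2 fold changes were -0.58 and -0.49, and 64.7% and 52.9% were called lower. Against transcripts of like length and at least that level, the median percentile of the 8 ligases moved from 23.6 to 35.4 (*Rps27-FLAG*) and from 28.3 to 41.0 (*Rps27l-FLAG*), a comparison chosen after the values were seen.

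The tested transcripts nearest in length show the range of outcomes. *Hspg2*, which encodes the basement membrane proteoglycan perlecan, is 13149 nt long and had 98.8 per kb in WT, close to *Huwe1* in both respects. Its log2 fold changes were -0.14 ± 0.062 and -0.11 ± 0.057 (SE, adjusted p = 0.241 and 0.409), where *Huwe1* had -0.66 and -0.52. *Pcm1*, a centriolar satellite protein with the same CDS length as *Trip12*, had -0.15 ± 0.086 and -0.20 ± 0.049 (SE, adjusted p = 0.351 and 0.0795). *Dnah8*, a dynein heavy chain nearest to *Mycbp2*, had -0.75 ± 0.29 and -0.59 ± 0.20 (SE, adjusted p = 0.181 and 0.184). *Hydin*, nearest to *Ubr4* and *Rnf213*, and *Ryr3*, nearest to *Herc1*, *Herc2* and *Birc6*, had only 1.14 and 0.496 per kb in WT and were not called in either line. With the clone as a block, calls of these neighbours turned. *Hspg2* (adjusted p = 3.12e-05 and 0.00107), *Pcm1* (7.16e-06 and 3.3e-07) and *Dnah8* (1.54e-73 and 5.89e-15) were then lower in both lines and *Hydin* in *Rps27-FLAG* (0.00626), while *Ryr3* was not called (0.0928 and 0.815). The difference between a ligase and its neighbour was not tested.

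**Figure D3:**
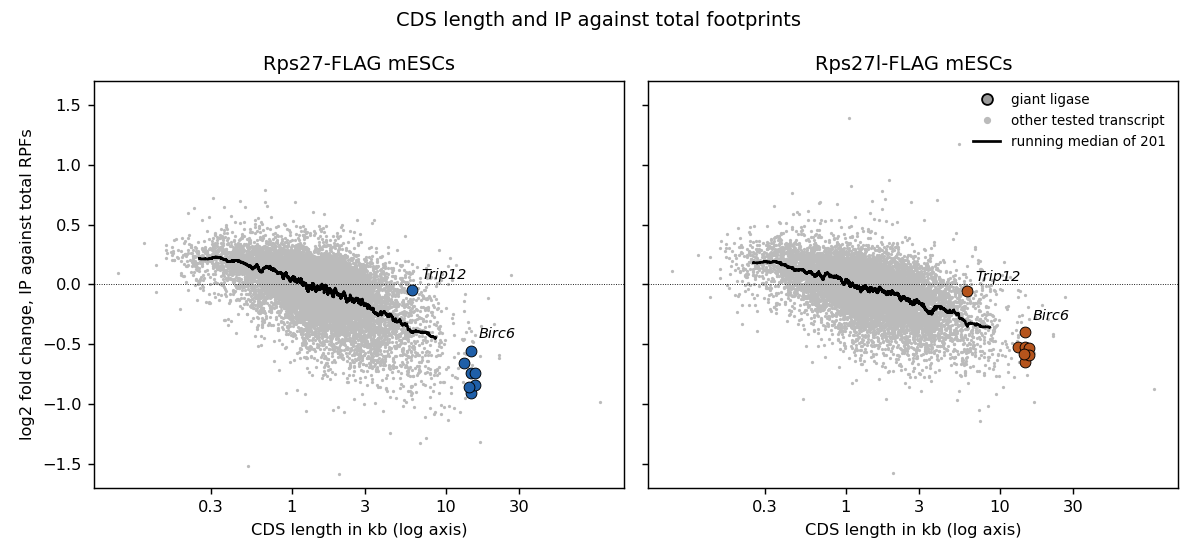
log2 fold change of IP against total RPFs (vertical axis) and CDS length (log axis) for the 10082 tested transcripts with an annotated CDS, in *Rps27-FLAG* (left) and *Rps27l-FLAG* (right). Grey dots are other transcripts, the black line is their running median, which ends where too few longer transcripts remain, and large points are the ligases; 7 cluster at the long end between -0.91 and -0.40, and *Trip12* sits above the line at -0.05 and -0.06.

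A fit that removed the trend with CDS length from each library, and took the clone as a block, tested each ligase against what its length predicts. *Trip12* was then higher in the IP RPFs, by 0.31 ± 0.030 in *Rps27-FLAG* (log2, SE, adjusted p = 2.16e-23) and 0.23 ± 0.028 in *Rps27l-FLAG* (adjusted p = 5.43e-11), as were 17.3% and 13.6% of tested transcripts. In *Rps27-FLAG* 6 ligases were lower, where 13.8% of tested transcripts and 28.9% of the 45 of like length were. The 45 were not matched to the ligases in level, and 17 of them reached the WT per kb level of the lowest ligase. *Herc2* (-0.31 ± 0.042), *Mycbp2* (-0.27 ± 0.045) and *Rnf213* (-0.24 ± 0.042) had the largest remainders. *Herc1* (-0.14 ± 0.041), *Ubr4* (-0.14 ± 0.030) and *Huwe1* (-0.10 ± 0.030) had smaller ones, with adjusted p values of the 6 from 5.68e-12 to 0.00687.

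In *Rps27l-FLAG* 4 ligases were lower, where 8.93% of tested transcripts and 20.0% of the 45 were. They were *Herc2* (-0.18 ± 0.043), *Mycbp2* (-0.12 ± 0.046), *Ubr4* (-0.11 ± 0.029) and *Huwe1* (-0.07 ± 0.028), with adjusted p values from 5.96e-04 to 0.0474. *Herc1* (-0.06, adjusted p = 0.378) and *Rnf213* (-0.05, adjusted p = 0.406) did not pass. *Birc6* passed in neither line, at 0.03 ± 0.030 (adjusted p = 0.451) and 0.07 ± 0.029 (adjusted p = 0.0882). Without the clone as a block 0 ligases were called in either line, against 99 and 17 of all tested transcripts. Leaving out *Rps27l-FLAG* replicate 1 or replicate 3 left 3 and 2 ligases called in that line. Over all tested transcripts 1793 and 1699 were then called, against 2269 with all clones.

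The fall in the IP RPFs was smaller with the tag on *Rps27l* than with the tag on *Rps27*. In the fit of both lines with the clone as a term, the log2 ratio of IP to total was higher in *Rps27l-FLAG* at an adjusted p under 0.05 for 7 ligases, all but *Trip12*, where 1.35% of tested transcripts and 22.2% of the 45 of like length were. The differences were 0.31 ± 0.060 for *Rnf213* (SE, adjusted p = 3.03e-04), 0.28 ± 0.064 for *Mycbp2* (adjusted p = 0.00539) and 0.25 ± 0.061 for *Herc2* (adjusted p = 0.00911). These 3 also exceeded the 0.25 that the study required of a log2 difference, as did 0.466% of tested transcripts and 17.8% of the 45.

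*Herc1* (0.21), *Birc6* (0.16), *Ubr4* (0.15) and *Huwe1* (0.14) remained under that limit, with adjusted p values from 0.0158 to 0.0470. *Trip12* did not differ detectably between the lines (-0.01 ± 0.038, SE, adjusted p = 0.955). For 7 ligases all 3 *Rps27l-FLAG* clones lay above all 3 *Rps27-FLAG* clones, as for 37.8% of the 45 and 9.08% of all tested transcripts. For *Mycbp2* the clone ratios were -0.86, -0.84 and -0.88 in *Rps27-FLAG* and -0.60, -0.56 and -0.59 in *Rps27l-FLAG*.

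The 45 transcripts of like length had a median difference of 0.16 between the lines, against -0.003 over all tested transcripts and 0.21 over the 7 longest ligases. Of the 45, 17 reached the WT per kb level of the lowest ligase, and level was not matched in the shares given for the line difference. With the CDS length trend removed, 0 ligases and 28 of all tested transcripts passed both limits. *Rnf213* had the lowest adjusted p of the 3 ligases called before (difference 0.19, adjusted p = 0.0893). Without the clone as a term 0 ligases were called, and 0 of all tested transcripts. *Herc2*, which lies at the limit, lost its call without replicate 3 of *Rps27-FLAG* (0.22) or replicate 3 of *Rps27l-FLAG* (0.24).

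**Figure D4:**
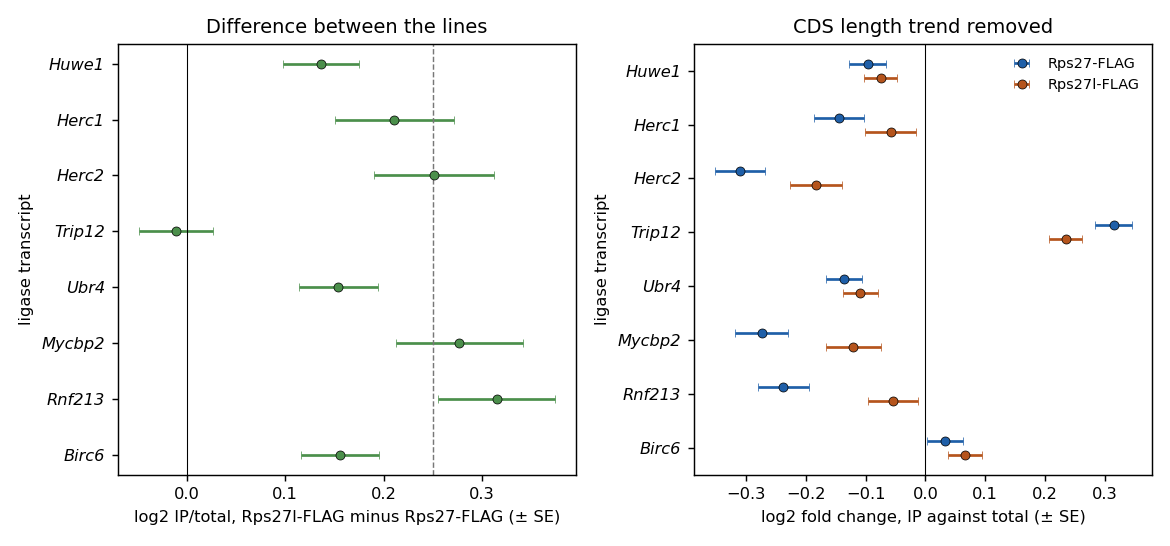
Left, difference of log2 IP to total between the lines (*Rps27l-FLAG* minus *Rps27-FLAG*) for each ligase with its SE, and the limit of 0.25 as a dashed line; right, log2 fold change of IP against total after removal of the CDS length trend, with its SE, in both lines. On the left 7 ligases lie between 0.14 and 0.31 and *Trip12* at -0.01; on the right *Trip12* lies at 0.31 and 0.23, *Birc6* near 0 and the other 6 below 0.

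Other genes of the ubiquitin system were described from 6 lists, of which 56 of 61 genes were tested. In the total RPFs 0 of the 56 were called in any comparison of lines by edgeR, with 2 at an unadjusted p under 0.05 in each. The share of all tested transcripts at that unadjusted limit was not computed. With the replicate block 0, 1 and 2 were called, against 0.00992%, 1.43% and 1.36% of all tested transcripts. Of 21 tested HECT ligases outside the group, 3 were lower in the IP RPFs of *Rps27-FLAG*, among them *Hectd4* (-0.95, CDS 13254 nt) and *Ube3c* (-0.52, 3249 nt). In *Rps27l-FLAG* 4 were lower, again including *Hectd4* (-0.65) and *Ube3c* (-0.53). *Hectd4* is as long as *Huwe1*, while *Ube3c*, which acts at the proteasome, is shorter than *Trip12*. Over all tested transcripts 5.34% and 2.27% were lower. With the clone as a block 14 and 12 of the 21 were lower and 0 and 1 higher, where 22.9% and 19.0% of all tested transcripts were lower. The medians of this list, whose median CDS was 2661 nt, were -0.235 and -0.21.

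Of 6 UBR box proteins, relatives of *Ubr4* that recognise N-degrons, *Ubr2* (-0.54) and *Ubr1* (-0.40) were lower in *Rps27-FLAG*, and *Ubr2* (-0.40) was also lower in *Rps27l-FLAG*. Of 8 cullins, the scaffolds of multi-subunit RING ligases, *Cul7* was lower in both lines (-0.78 and -0.50) and differed between them by 0.28 (adjusted p = 5.17e-04). With the clone as a block 4 UBR box proteins were lower in each line and 1 was higher in *Rps27-FLAG*, and 5 and 4 cullins were lower. Of all tested transcripts 22.9% and 19.0% were lower in that fit. Of 3 other inhibitors of apoptosis, 8 E1 enzymes and 11 partners and substrates of the ligases such as *Mcl1* and *Trp53*, 0 were called in either line by edgeR without the block. Before adjustment, 1, 2 and 2 had a p under 0.05 in *Rps27-FLAG*, and 1, 0 and 1 in *Rps27l-FLAG*, a limit whose share over all tested transcripts was not computed. With the block 1, 5 and 5 were called in *Rps27-FLAG* and 1, 2 and 3 in *Rps27l-FLAG*, in either direction. Of the 10085 tested transcripts 4154 and 3128 were called in that fit.

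Across the 15 libraries 7 of the ligases shared a profile and *Trip12* did not. The log2 levels of each member correlated with the mean of the other 7 at a Pearson r of 0.95 to 0.98 for *Birc6*, *Huwe1*, *Herc1*, *Mycbp2*, *Herc2* and *Ubr4*, 0.83 for *Rnf213* and 0.29 for *Trip12*. Outside the group, the transcripts most like the mean profile were *Pi4ka*, a phosphatidylinositol 4-kinase, and *Nup205*, a nucleoporin (both r = 0.993), *Anapc1*, a subunit of the anaphase-promoting complex (0.987), *Cenpe*, a mitotic kinesin (0.986), and *Trrap*, a scaffold of histone acetyltransferases (0.985). Their CDSs were 5832 to 11541 nt long and their log2 fold changes of IP against total were -0.69 to -1.29 in *Rps27-FLAG* and -0.50 to -1.14 in *Rps27l-FLAG*. The mean profile spans IP and total libraries and is itself lower in the IP libraries. Negative fold changes of transcripts picked by likeness to it therefore follow from the choice and are no separate result. These 15 points are libraries that share clones and replicate pools, so the correlations are a description only.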

How the data were processed

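The authors' deposited values are counts of A sites per transcript, not normalized. According to the methods, reads were trimmed (cutadapt 2.4), deduplicated by molecular identifiers (UMI-tools 1.0.1), freed of rRNA, tRNA and snRNA and aligned uniquely to GRCm38 transcripts (Bowtie2 2.3.4.3), and 15 codons at the start and 5 at the end of a CDS went uncounted. 0 columns of per-sample values were left unused. Annotation came from GENCODE M21 (21713 of 21727 transcripts matched), so lengths may differ from those of the authors' release. Mitochondrially encoded transcripts were dropped and CPM over 2 in at least 14 of 15 libraries was required. TMM factors were computed separately for IP and total libraries, so an IP fold change is relative to the other transcripts. Counts were tested with edgeR 4.0.16 in R 4.3.3 (quasi-likelihood, Benjamini-Hochberg over 10085 transcripts, threshold 0.05). Designs were cell line for total RPFs, fraction for IP against total, and clone with fraction within line for the line difference, which left *Tmod3* out of counts. The length fit used per-library loess offsets (span 0.5) and is not a fit of the study. Ratios of clones added 0.5 counts. Fragments of a replicate number were pooled for library construction, according to the methods, the study's list of clones gives that number as the sequencing batch, and per the labels the IP and total library of a number come from 1 clone. Deviations from the group means correlated with r of 0.468 to 0.790 (median 0.558) in all 6 clones. Libraries of the same replicate number in other lines had r of -0.164 to 0.713 (median 0.443), and other pairs a median of -0.314. Clone and replicate number were therefore not separated. Libraries of a group differed by chi-square per degree of freedom of 1.78 to 10.3. Alternatives used limma 3.58.1 and DESeq2 1.42.0. The tests were tried on simulated counts. Figures were drawn with matplotlib 3.10.9 in Python 3.11.15. Named genes were the 8 ligases, the tested transcript nearest to each in CDS length, the 5 most like the mean profile, up to 4 called per list with the largest change, and both tagged genes; some called genes of the lists are not reported here. The ligases, lists and tests were chosen with earlier results of these data known.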

Additional observations from a re-analysis of the deposited data

Results flagged for a closer look

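For 7 ligases the effect of the IP differed between the tagged lines, by the test of the difference itself in edgeR's fit of both lines. The log2 ratio of IP to total RPFs, *Rps27l-FLAG* minus *Rps27-FLAG*, was 0.14 for *Huwe1*, 0.15 for *Ubr4*, 0.21 for *Herc1*, 0.25 for *Herc2*, 0.16 for *Birc6*, 0.28 for *Mycbp2* and 0.31 for *Rnf213*, with adjusted p values from 3.03e-04 to 0.0470. The ratio was below 0 in every clone of both lines for all of them. The 45 transcripts of like length had a median difference of 0.16. An adjusted p under 0.05 in this direction was found for 22.2% of them and 1.35% of all tested transcripts. Of the 45, 17 reached the WT per kb level of the lowest ligase, and level was not matched in these shares. Only 3 of the ligases, *Herc2*, *Mycbp2* and *Rnf213*, also exceeded the limit of 0.25. With the CDS length trend removed, 0 ligases passed both limits.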

How the results depend on the processing

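Of 820 values of single ligases under alternatives, 720 kept their direction and their side of the threshold, 57 kept the direction and lost the call, 12 gained a call and 31 changed sign. The clone block (replicate block) left 7 ligases lower in *Rps27-FLAG* and gave 7 in place of 6 in *Rps27l-FLAG*, and the replicate block left 0 ligases called between lines in total RPFs. It raised the calls over all transcripts from 572 to 4154 and from 313 to 3128. Without a replicate block, 0 ligases were called for the line difference and 0 in either length fit. The calls over all transcripts were then 0, 99 and 17. Leaving out single replicates gave 0 to 7 called ligases for IP against total in each line and 2 to 4 for the line difference. It gave 5 to 7 in the length fit of *Rps27-FLAG* and 2 to 4 in that of *Rps27l-FLAG*. Over all transcripts the calls for IP against total were 0 to 1809 (*Rps27-FLAG*) and 0 to 318 (*Rps27l-FLAG*). They were 46 to 64 for the line difference, and 2402 to 2426 and 1261 to 1793 in the length fits. For the line difference, no limit on the fold change gave 7 ligases (150 transcripts in all) and removal of the length trend 0 (28 in all). DESeq2 gave no adjusted p there for 4 of 8 ligases and 9 calls over all transcripts against 57, so its count of ligases was not used. The median percentile among transcripts of like length (23.6, 28.3) was 35.4 and 41.0 with the level condition, which was chosen after seeing the data, 35.7 in *Rps27l-FLAG* with CPM over 2 in at least 3 libraries, and 23.3 to 30.4 and 25.2 to 33.3 over left-out replicates. The WT level percentile (81.7) was 80.0 with the 20 nearest in length, 84.3 with the looser filter and 81.7 to 83.2 over left-out replicates.

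The sign changes were of values close to 0. *Birc6* in the length fits turned to -0.0588 with a straight line and -0.0696 with the 200 nearest (*Rps27-FLAG*), and to -0.0233 with the 200 nearest (*Rps27l-FLAG*). *Trip12* in the line difference ran from -0.0199 to 0.0005 over left-out replicates. The other 27 were uncalled comparisons of total RPFs with a replicate left out, whose ranges follow. In *Rps27-FLAG* against WT, *Huwe1* ran from -0.0671 to 0.0227, *Herc2* from -0.0697 to 0.00557 and *Ubr4* from -0.0556 to 0.0149. In *Rps27l-FLAG* against WT, *Birc6* ran from -0.0557 to 0.0121, *Ubr4* from -0.0881 to 0.0335, *Herc1* from -0.0711 to 0.0357, *Mycbp2* from -0.0868 to 0.0402 and *Rnf213* from -0.227 to 0.0815. Between the tagged lines, *Ubr4* ran from -0.0661 to 0.0536, *Trip12* from -0.0967 to 0.0321 and *Rnf213* from -0.125 to 0.202. The causes were not tested.

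In IP against total, the log2 fold changes of all 8 ligases were below 0 under every alternative run. The fits rest on 3 clones a line, on 328 counts or more for a ligase in a library, and on few transcripts beyond 10524 nt to set the length trend.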
